A study of Mus musculus with 3 samples.

Results

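Cytotoxic lymphocytes of the mouse lacrimal gland (LG) were examined through 10 genes of killing and target recognition, taken by name from the 32285 genes of the count matrices. These are 6 receptor genes of natural killer (NK) cells, *Klra4*, *Klra8*, *Klre1*, *Klrb1c*, *Klrd1* and *Klrk1*, and 4 effector genes, *Nkg7*, *Gzma*, *Gzmb* and *Prf1*. Single-cell RNA sequencing (scRNAseq) counts were available for 3 LG samples of C57BL/6J mice at 2 months of age: 1 female library and 2 male libraries (male replicates 1 and 2), each from the 6 glands of 3 pooled mice. No animal carried a transgene or received a treatment. Female and male glands were processed on different days and their libraries made at different cores, so the effects of sex, day and core cannot be told apart here, and sex was not tested. Each library is a pool, so that p-values rest on 3 pools and not on single mice. The spread they use was largely shared between genes and is not each gene's own.

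NK cells, CD8 T cells and innate lymphoid cells (ILCs) are lymphocytes that share many genes. NK cells read target cells through germline-encoded receptors, many of them lectin-like proteins that bind MHC class I or stress-induced relatives of it, and integrate activating and inhibitory signals. When activated, NK cells and cytotoxic T cells release granules in which perforin opens the target membrane and granzymes, a family of serine proteases, enter and trigger death. ILCs of the helper kinds instead secrete cytokines.

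After filtering, 18344 cells remained (7652 in the female library, 5295 in male replicate 1 and 5397 in male replicate 2), with 55390678, 37641576 and 41269825 unique molecular identifiers (UMIs, which count each captured RNA molecule once). The median cell held 3252, 1884 and 1788 UMIs. Between 8 and 13 cell barcodes were shared by any pair of libraries. Of 1540 cells in the lymphoid part, 354 were NK-like, 144 CD8 T-like, 195 other T-like, 185 gamma-delta T-like and 418 ILC-like, where "-like" marks a name given from marker genes, 82 were proliferating, and 162 stayed unnamed. The 10 genes neither made nor named these classes, although the classes rest on other genes of the same cells, which the p-values do not take into account. The next 3 genes had themselves served in the naming, so their counts describe the classes and give no separate check of the names. *Ncr1*, an NK receptor, had 158 UMIs in NK-like cells and 1 in CD8 T-like cells, and *Cd3e*, a part of the T cell receptor complex, had 3 and 66. *Il1rl1*, the receptor for interleukin-33, had 215 UMIs in ILC-like cells and 0 in the other 2 classes. Transcripts of tear proteins, which lymphocytes do not make, reached every class: free RNA was estimated to hold 41.2 to 70.5% of the UMIs of NK-like cells, 43.7 to 64.6% of CD8 T-like cells and 44.3 to 77.9% of ILC-like cells across libraries.

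All 6 receptor genes lie on mouse chromosome 6 (GRCm38) within 1351 kb, in the region known as the NK gene complex, while *Nkg7*, *Gzma*, *Gzmb* and *Prf1* lie on chromosomes 7, 13, 14 and 10. The 250 bases before the annotated start were read from RefSeq (GRCm38.p6) for 9 of the 10 genes. They are printed here for 5 genes with a window free of annotated exons, so that the close pair *Klra4* and *Klra8* can be compared with another receptor and the granzymes. Capitals mark TGTGGT, the core bound by Runx transcription factors, read on either strand.
Klra4, chr6:130067272-130067521, minus strand: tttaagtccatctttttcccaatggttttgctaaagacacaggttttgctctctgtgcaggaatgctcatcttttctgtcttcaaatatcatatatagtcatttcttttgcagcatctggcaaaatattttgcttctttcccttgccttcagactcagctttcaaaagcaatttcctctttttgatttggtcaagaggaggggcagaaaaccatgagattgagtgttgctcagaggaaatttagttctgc
Klra8, chr6:130129899-130130148, minus strand: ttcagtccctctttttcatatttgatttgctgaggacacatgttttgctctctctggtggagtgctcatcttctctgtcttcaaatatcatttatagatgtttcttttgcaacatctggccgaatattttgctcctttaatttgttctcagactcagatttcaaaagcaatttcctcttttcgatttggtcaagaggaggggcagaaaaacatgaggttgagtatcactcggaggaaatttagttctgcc
Klrk1, chr6:129623865-129624114, minus strand: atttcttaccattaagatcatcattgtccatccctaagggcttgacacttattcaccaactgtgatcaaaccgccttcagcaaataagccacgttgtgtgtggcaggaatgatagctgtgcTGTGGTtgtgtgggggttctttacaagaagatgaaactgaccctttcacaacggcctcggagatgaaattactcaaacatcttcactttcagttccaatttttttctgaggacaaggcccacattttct
Gzma, chr13:113100982-113101231, minus strand: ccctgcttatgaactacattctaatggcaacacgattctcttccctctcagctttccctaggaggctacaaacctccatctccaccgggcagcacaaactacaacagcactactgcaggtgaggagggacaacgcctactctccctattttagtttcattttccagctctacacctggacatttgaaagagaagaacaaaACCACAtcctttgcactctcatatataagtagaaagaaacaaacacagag
Gzmb, chr14:56262335-56262584, minus strand: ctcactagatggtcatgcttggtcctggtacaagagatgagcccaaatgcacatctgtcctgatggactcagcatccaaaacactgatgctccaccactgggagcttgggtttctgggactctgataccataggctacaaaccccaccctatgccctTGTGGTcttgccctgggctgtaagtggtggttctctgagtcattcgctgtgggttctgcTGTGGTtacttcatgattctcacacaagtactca
The windows of *Klra4* and *Klra8* were identical at 212 of 249 aligned bases (85.1%), and neither held the Runx core. In *Klrk1* it lay 129 bases before the start, in *Gzma* 50 bases before and in *Gzmb* 93 and 34 bases before. Of the 9 genes with a window, 7 held the core on either strand in at least 1 window, against 15.9% of 27025 genes. Among the 7, *Klre1* held it only in a window that lay wholly within an annotated exon, and not in its other window. The T-box core GGTGTGA was found in 1 of the 9 (*Nkg7*), against 3.84% of genes, and the ETS core CAGGAAG in 2 (*Nkg7* and *Prf1*), against 12.1%. No matches overlapped. The motifs were chosen with results known, a match is a description of letters, and no binding was measured.

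The 10 genes together had 5673 UMIs over all kept cells, of which 3461 (61.0%) were in NK-like cells, a class that made up 1.93% of cells. NK-like and proliferating lymphoid cells together held 81.4%. The female library supplied 82.2% of these UMIs, so that levels and calls lean on it. Without it *Klrb1c* and *Prf1* did not pass the filter on low counts and were not tested in any comparison, and other calls lost without it are named with their results. Levels are given as CPM, a gene's UMIs scaled to the total UMIs of its class and library, with no scaling by length, since each molecule was counted once at its 3′ end. Values are listed in the order female library, male replicate 1, male replicate 2.

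*Klra4*, an activating receptor that signals through the adaptor encoded by *Tyrobp* (chr6:130043731-130067271, minus strand), reached 864, 295 and 301.5 CPM in NK-like cells. It had 0 UMIs in CD8 T-like, gamma-delta T-like and ILC-like cells of every library. *Klra8*, an activating receptor of the same family known for binding a viral surface protein (chr6:130115226-130129898, minus strand), reached 608, 129.9 and 185.5 CPM in NK-like cells and was likewise at 0 in CD8 T-like and ILC-like cells. With 0 UMIs over a class, the level can be up to 11.4 CPM in CD8 T-like and 3.94 CPM in ILC-like cells (3 counts over the summed UMIs of the class). Members of this family are much alike in sequence: 4.66% of 50-base words at the 3′ end of *Klra4* transcripts recurred in *Klra1*, and 13.1% of those of *Klra8* in *Klra9*, so that part of their reads may have been shared or dropped.

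*Klre1*, a lectin-like receptor that pairs with the products of *Klri1* and *Klri2* (chr6:129577905-129585827, plus strand), stood at 609.9, 248 and 147 CPM in NK-like cells. In CD8 T-like cells it was 81.0, 0 and 22.1 CPM, below every NK-like value. *Klrb1c*, an activating receptor that bears the classical NK surface antigen of this strain (chr6:128778485-128789215, minus strand), was the lowest receptor, with 236, 35.4 and 69.6 CPM in NK-like cells and 24.9, 0 and 0 CPM in CD8 T-like cells. An annotated gene, *Gm44511*, overlaps it on the same strand and held 11.6% of its 3′ words (17.9% recurred in any other gene), so the reads of the pair cannot be told apart fully.

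*Klrd1* encodes the constant partner of the NKG2 receptors, which read the MHC-like product of *H2-T23* (chr6:129591782-129598775, plus strand). It stood at 622, 189 and 255 CPM in NK-like cells against 187, 87.2 and 0 CPM in CD8 T-like cells. *Klrk1* encodes an activating receptor for stress-induced ligands that CD8 T cells are also known to use (chr6:129610323-129623864, minus strand), and was 538, 272 and 193 CPM in NK-like and 206, 87.2 and 22.1 CPM in CD8 T-like cells. It was higher in NK-like cells in each library, although the ranges of the classes overlapped. Among the other T cell classes *Klrk1* stood at 62.1, 105 and 65.3 CPM in other T-like and 38.2, 80.3 and 18.0 CPM in gamma-delta T-like cells, levels that overlapped.

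*Nkg7*, a membrane protein of cytotoxic granules (chr7:43437073-43438249, plus strand), was the most abundant of the 10, with 1276, 543 and 603 CPM in NK-like cells and 866, 401 and 729.9 CPM in CD8 T-like cells. It was higher in NK-like cells in 2 of 3 libraries. It also reached 236, 63.3 and 269 CPM in other T-like cells, below all CD8 T-like values, and 0 UMIs in ILC-like cells.

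*Gzma*, a granzyme with trypsin-like activity (chr13:113093825-113100981, minus strand), was 830.5, 425 and 634 CPM in NK-like cells but 24.9, 17.4 and 22.1 CPM in CD8 T-like cells. *Gzma* had up to 44 UMIs in a single NK-like cell and a UMI in 31.6% of NK-like cells. *Gzmb*, a granzyme that cleaves after aspartate (chr14:56258838-56262260, minus strand), was low, with 95.4, 94.5 and 38.65 CPM in NK-like cells and 12.5, 52.3 and 0 CPM in CD8 T-like cells. *Prf1*, which encodes perforin (chr10:61297833-61304680, plus strand), stood at 177, 35.4 and 54.1 CPM against 24.9, 0 and 22.1 CPM. These last genes rest on few molecules in T cells, 5 UMIs each in CD8 T-like cells.

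**Figure D1:**
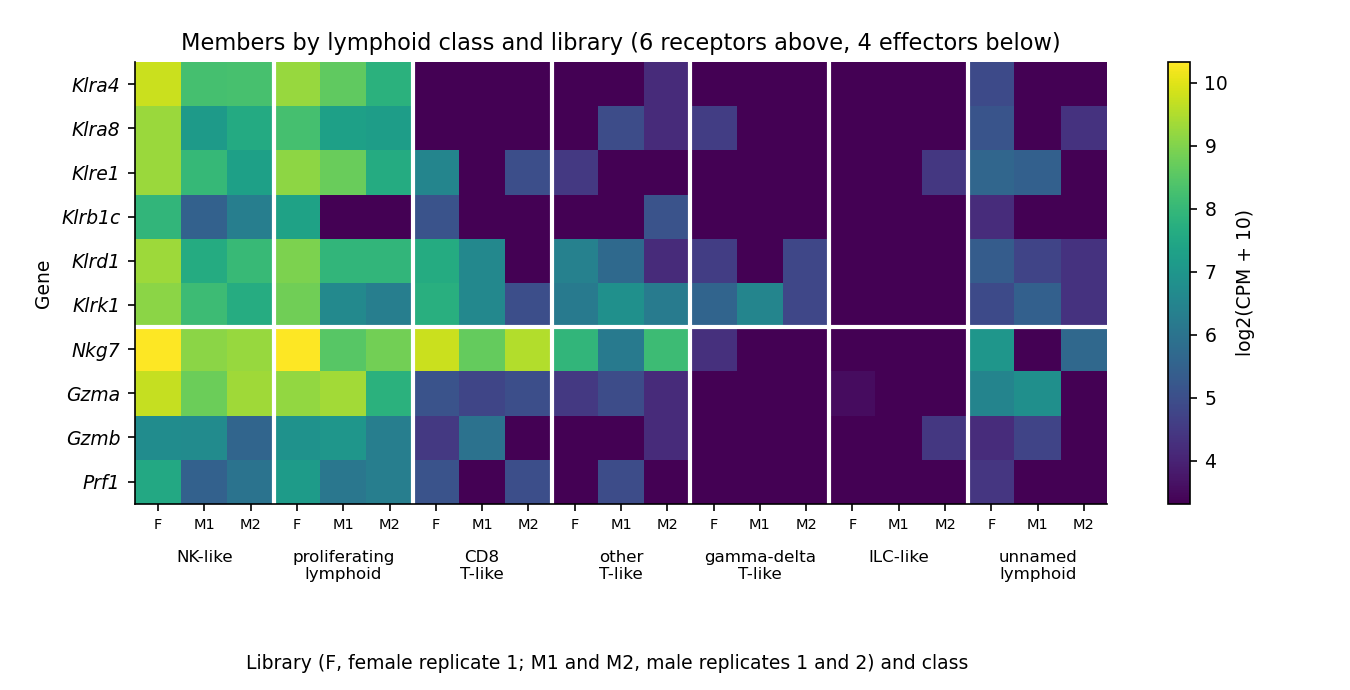
Levels of the 10 genes on the scale log2(CPM + 10) by lymphoid class and library (columns) with the receptors in the upper rows and the effectors in the lower. NK-like and proliferating cells are bright for nearly all genes, CD8 T-like cells mainly for *Nkg7*, and ILC-like cells stay at the darkest colour except for single UMIs.

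Summed over the 6 receptors, NK-like cells had 1933 ± 1338 CPM (SD over the n = 3 libraries, as for the other sums), CD8 T-like cells 239 ± 234 CPM and ILC-like cells 4.015 ± 6.95 CPM. The 4 effectors summed to 1602 ± 682, 724.5 ± 233 and 4.615 ± 6.50 CPM. In NK-like cells the receptor sum was 3479 CPM in the female library and 1169.5 and 1152 CPM in the male libraries. When tear-product and mitochondrial UMIs were left out of the totals these became 5328, 2981 and 2988 CPM, so the female value lay above the male values on either scale. The free RNA share was lowest in the female library, at 41.2% of NK-like UMIs against 69.4 and 70.5%. Its part in the remaining difference was not tested.

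Proliferating lymphoid cells, a cluster with both NK markers and cell cycle genes, carried the same genes at overlapping levels. *Klra4* was 599, 383 and 210.3 CPM there, *Gzma* 572, 648 and 210.3 CPM, and *Nkg7* 1257, 354 and 444 CPM. Ranges overlapped those of NK-like cells for all 10 genes, and in the order of means either class came first. In 8 of the 10 genes NK-like cells had the highest mean and in 2, *Klre1* and *Gzmb*, proliferating cells. Only 46, 16 and 20 cells were in this cluster, which was left out of the tests.

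To ask which genes set NK-like cells apart from CD8 T-like cells, UMIs were summed per library and class and tested with edgeR's quasi-likelihood method in 1 fit over 5 lymphoid classes, blocking on the library and adjusting p-values over 2820 genes by Benjamini-Hochberg. Of the 10 genes, 8 were higher in NK-like cells at an adjusted p under 0.05, while 1.74% of all genes tested were higher and 1.67% lower. The median log2 fold change of the 10 was 2.80 against 0.06 over all genes. All 6 receptors and 2 of the 4 effectors were called. All 10 passed the filter on low counts, which sums of NK-like cells alone could satisfy. They were picked as genes of NK cells and killing, with earlier results of these data known, so many calls could be foreseen.

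With UMIs pooled over libraries, *Klra4* was at least 61.0-fold higher (adjusted p = 6.84e-28 by edgeR) and *Klra8* at least 41.7-fold higher (2.14e-20), both bounded by the 0 UMIs in CD8 T-like cells. Of the pooled UMIs in NK-like cells, 435 of 499 for *Klra4* and 306 of 341 for *Klra8* were from the female library. The bounds therefore need not hold in each library. *Gzma* had the largest fitted difference of the genes with UMIs in both classes, with a log2 fold change of 4.88 ± 0.44 (SE; adjusted p = 8.08e-26). *Klrb1c* followed at 3.25 ± 0.64 (3.45e-05) and *Klre1* at 3.04 ± 0.42 (1.31e-10). The remaining calls were smaller: *Prf1* at 2.56 ± 0.65 (0.00345), *Klrd1* at 1.85 ± 0.35 (1.51e-05) and *Klrk1* at 1.51 ± 0.34 (0.000364).

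*Nkg7* and *Gzmb* did not pass. For *Nkg7* the log2 fold change was 0.34 ± 0.23 (adjusted p = 0.657), with a 95% interval of -0.11 to 0.79. That interval rests on a spread largely shared between genes and not on the gene's own spread between libraries. *Nkg7* was higher in NK-like cells in 2 of 3 libraries, so the interval cannot exclude a difference of 1 log2 unit. For *Gzmb* the log2 fold change was 2.08 ± 0.67 (adjusted p = 0.0587) with an interval of 0.76 to 3.40. Without the library block 5 of the 10 genes were called, and *Klrd1*, *Klrk1* and *Prf1* were lost (adjusted p = 0.0885, 0.0723 and 0.149 by edgeR), as they were with marker gates in place of clusters (0.179, 0.294 and 0.631). *Prf1* was also lost with free RNA subtracted (adjusted p = 0.0578 by edgeR), while *Nkg7* (0.0295) and *Gzmb* (0.00193) were called at a lower clustering resolution and *Gzmb* without male replicate 1 (0.0367). DESeq2 called 2 of the 10, *Klrd1* and *Gzma*, and gave no adjusted p for 3. All values of NK-like cells lay above those of CD8 T-like cells for 7 of the 10 genes, against 5.39% of genes tested, with 4.04% of genes the other way.

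**Figure D2:**
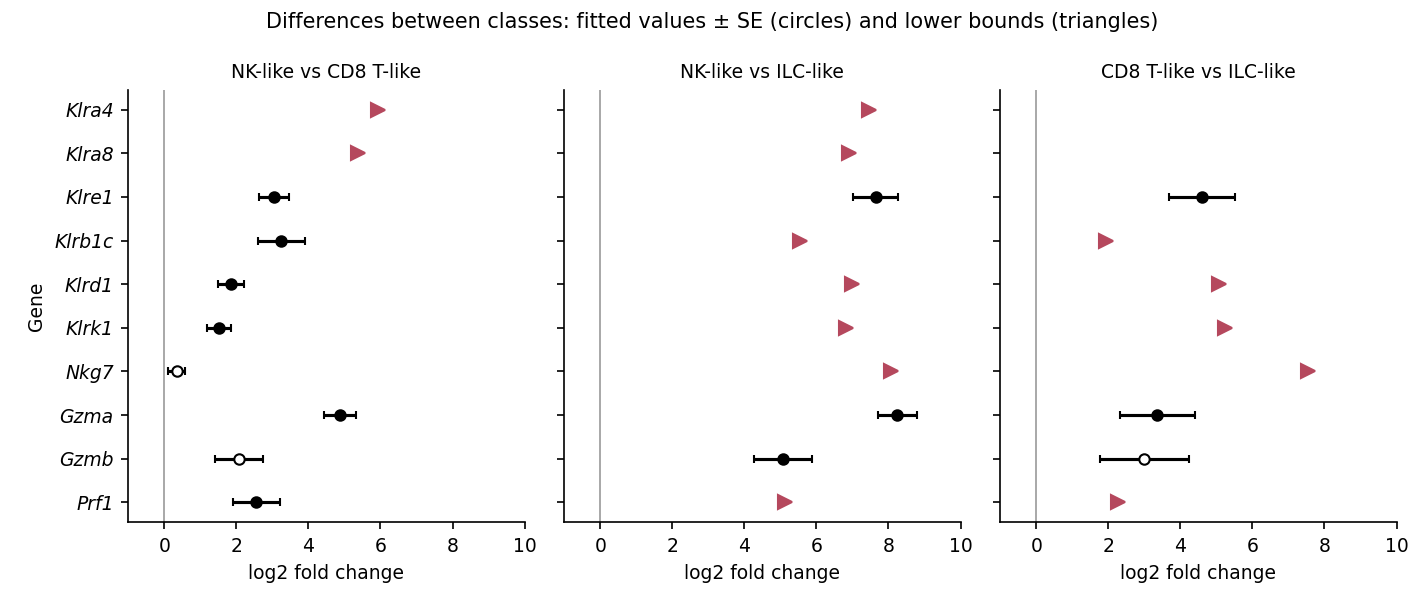
Log2 fold changes for the 3 comparisons, with fitted values ± SE as circles (filled where the adjusted p was under 0.05) and lower bounds as triangles where the second class had 0 UMIs. In NK-like against CD8 T-like cells *Nkg7* sits nearest 0 at 0.34, and against ILC-like cells all 10 genes lie above 5.

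Against ILC-like cells all 10 genes were higher in NK-like cells, while 7.70% of genes tested were higher and 10.2% lower. Sums of NK-like cells alone could again satisfy the filter on low counts. Many calls could also be foreseen from how the 10 were picked. All values of NK-like cells lay above those of ILC-like cells for each of the 10, against 12.1% of genes tested, with 5.82% the other way. Of the 10, 7 had 0 UMIs in 418 ILC-like cells, and the bounds were at least 271-fold for *Nkg7*, 177-fold for *Klra4*, 128-fold for *Klrd1*, 121-fold for *Klra8*, 113-fold for *Klrk1*, 46.4-fold for *Klrb1c* and 35.0-fold for *Prf1*. Only *Klre1*, *Gzma* and *Gzmb* had a UMI there, 1 each. Their ratios were 368, 569 and 64.8, with 95% counting intervals of 65.7 to 14590.1, 102 to 22514.4 and 11.2 to 2599. Bounds and ratios pool UMIs over libraries, so they lean on the female library and need not hold in each. For *Gzmb* the call was lost without the female library (adjusted p = 0.166 by edgeR), and with DESeq2 *Klra4* and *Klrb1c* lost theirs (adjusted p = 0.282 and 0.555). The 3 UMIs in all compare with 2.43 expected from free RNA.

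CD8 T-like cells also stood above ILC-like cells, for 7 of the 10 genes, while 5.82% of genes tested were higher and 8.44% lower in CD8 T-like cells. *Nkg7* was at least 188-fold higher (adjusted p = 3.16e-58 by edgeR), *Klrk1* at least 37.6-fold (2.72e-16) and *Klrd1* at least 33.8-fold (3.31e-15). *Prf1* (at least 4.82-fold, adjusted p = 0.0093 by edgeR) and *Klrb1c* (at least 3.86-fold, 0.0211) rested on 5 and 4 UMIs. *Klre1* (ratio 40.5, counting interval 6.17 to 1714) and *Gzma* (ratio 17.4, 2.11 to 799) were called on 14 and 6 UMIs against 1, and neither was without the female library (adjusted p = 0.9565 and 0.312 by edgeR). *Gzma* was also lost without male replicate 1 (adjusted p = 0.0838 by edgeR). DESeq2 called 3 of the 10. All values of CD8 T-like cells lay above those of ILC-like cells for 3 of the 10 (*Klrk1*, *Nkg7* and *Gzma*), against 9.93% of genes tested, with 5.71% the other way. *Gzmb* did not pass (adjusted p = 0.0908 by edgeR). *Klra4* and *Klra8*, at 0 in both classes, give no fold.

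Shares of cells with at least 1 UMI were compared after thinning each cell to 500 UMIs. *Nkg7* was found in 46.35, 22.8 and 26.7% of NK-like cells and in 37.3, 16.2 and 30.0% of CD8 T-like cells. The exact 95% binomial intervals, 39.15 to 53.7% and 25.8 to 49.99% in the female library, overlapped. *Klra4* was found in 27.1, 10.53 and 14.3% of NK-like cells and in none of 144 CD8 T-like cells, which allows a share of up to 2.08%. *Gzma* was found in 20.3, 14.04 and 20.95% of NK-like cells, and in 1 of 67 female CD8 T-like cells and 0 of 37 and 0 of 40 male ones. In ILC-like cells 9 of the 10 genes had a share of 0 after thinning, which over 418 cells allows up to 0.718%. Unthinned, *Klra4* was seen in 43.2% and *Nkg7* in 70.9% of NK-like cells. In fibroblast-like cells, which should lack both, the unthinned shares were 0.0347 and 0.243%, at median depths of 3117, 1529.5 and 1252 UMIs against 2514.5, 1461 and 1042 in NK-like cells.

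**Figure D3:**
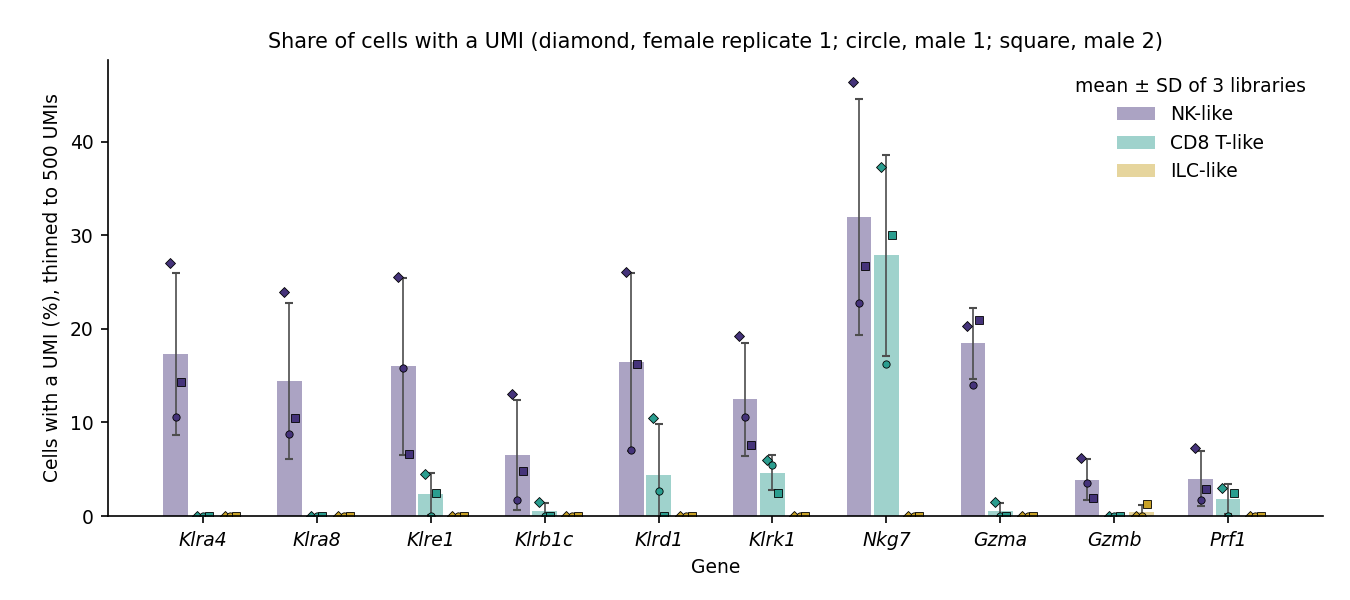
Share of cells with at least 1 UMI after thinning to 500 UMIs, with bars for the mean of 3 libraries, error bars for the SD and a symbol for each library. *Nkg7* has the tallest bar in both NK-like and CD8 T-like cells (means of 31.9 and 27.8%), and ILC-like cells show a UMI of *Gzmb* alone.

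Cells were then counted by which kinds of gene they showed, unthinned. Of 354 NK-like cells 69.2% had a UMI of a receptor and of an effector, 16.7% of a receptor only and 7.63% of an effector only. Of 144 CD8 T-like cells 37.5% had an effector only, 25.7% both kinds, 5.56% a receptor only and 31.2% none. The libraries differed, with both kinds in 29 female cells against 22 with an effector only, and in 6 and 2 male cells against 12 and 20. In gamma-delta T-like cells 93.0% showed none of the 10 genes, in other T-like cells 71.8% and in ILC-like cells 99.3%. The median NK-like cell showed 5, 2 and 2 of the 10 genes, in cells with a median of 2514.5, 1461 and 1042 UMIs. After thinning to 500 UMIs, 12.5, 43.9 and 33.3% of NK-like cells showed none of the 10. The part of depth in these counts was not tested.

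**Figure D4:**
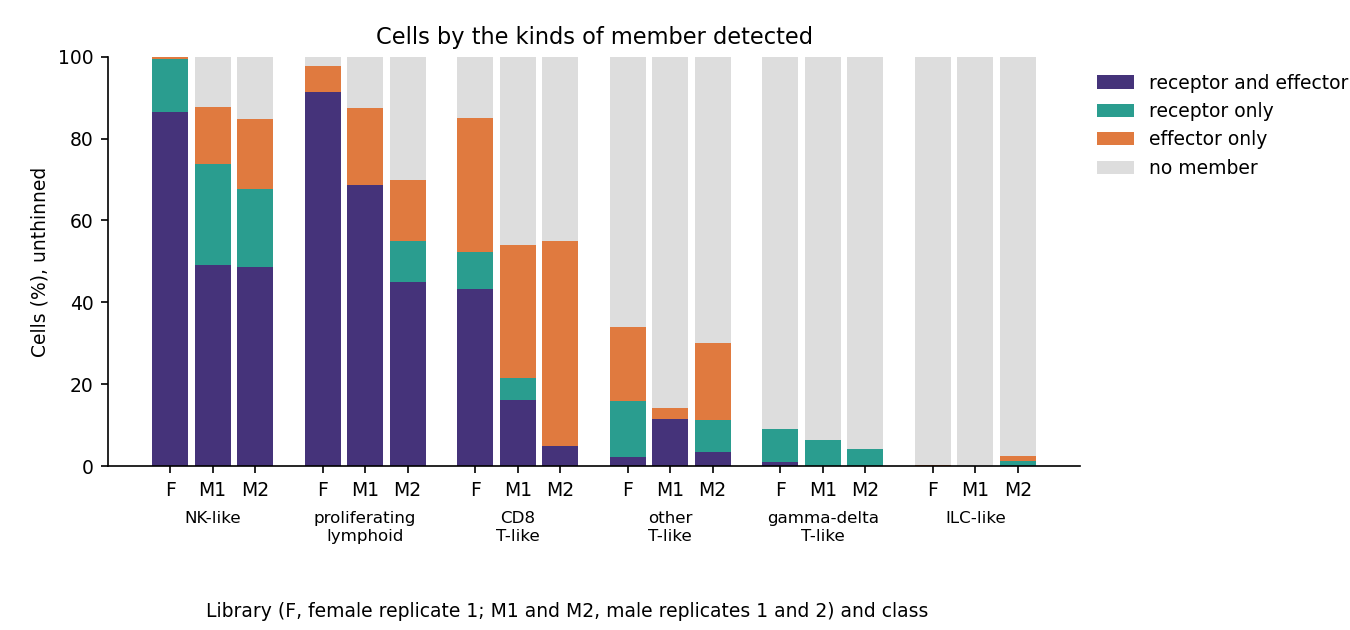
Percent of cells of each class and library by the kinds of gene detected, from both a receptor and an effector (darkest) to none (grey). NK-like cells with both made up 86.5, 49.1 and 48.6% in the 3 libraries and CD8 T-like cells 43.3, 16.2 and 5.00%.

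Pairs of genes were then looked for in the same NK-like cells. *Klra8* had a UMI in 70.9% of 117 *Klra4*-positive female cells against 26.7% of 75 negative ones, with median depths of 2601 and 2310 UMIs. In male replicates 1 and 2 the shares were 16.7 against 17.8% and 25.0 against 17.3%, over only 12 and 24 positive cells. *Gzmb* was seen in 25.7, 30.8 and 10.3% of *Gzma*-positive NK-like cells against 5.74, 2.27 and 2.63% of negative ones, the same direction in 3 of 3 libraries. For *Prf1* the shares were 47.1, 7.69 and 10.3% against 20.5, 4.55 and 5.26%. *Gzma* was seen in 41.6% of *Nkg7*-positive female cells against 3.85% of negative ones, with median depths of 2569 and 2216.5 UMIs. For this pair the direction was the same in 3 of 3 libraries, with smaller differences in the male ones. The remaining pairs differed little in the female library. There *Klrk1* was seen in 69.3% of *Klrd1*-positive cells against 69.2% of negative ones, and *Klre1* in 76.2% of *Klrb1c*-positive cells against 70.5%. In male replicates 1 and 2 the *Klrk1* shares were 35.7 against 27.9% and 26.9 against 16.5%, over 14 and 26 positive cells. Those of *Klre1* were 33.3 against 33.3% and 37.5 against 14.4%, over only 3 and 8 positive cells. These are descriptions of sparse counts within 3 libraries and were not tested.

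Outside the lymphoid part, 8 of the 10 genes were rare. Over 16804 cells *Prf1* had 6 UMIs, *Gzmb* 7, *Klrb1c* 10, *Gzma* 17, *Klra4* 23, *Klre1* 27, *Klra8* 28 and *Nkg7* 63. Each of these 8 counts lay above the UMIs expected from free RNA. The expected values were 19.87 for *Nkg7*, 7.123 for *Klra8*, 9.707 for *Klra4* and 10.61 for *Gzma*, for example. The source of these UMIs was not tested. *Klrd1* had 179 UMIs in 132 cells, against 11.2 expected from free RNA, and *Klrk1* 123 UMIs in 102 cells, against 6.01. Of these, 135 and 55 UMIs lay in 1 myeloid-like cluster of 507 cells led by *Cd209a*, a lectin of dendritic cells.

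In that cluster *Klrd1* was at 168, 128 and 85.2 CPM and *Klrk1* at 59.1, 35.5 and 66.3 CPM, in every library. *Klrd1* was found in 95 cells (18.7%), where free RNA would give 0.212 UMIs, and *Klrk1* in 49 cells (9.67%), where it would give 0.107. None of the 95 *Klrd1*-positive cells had a UMI of *Ncr1*, *Eomes*, *Cd3e*, *Klra4*, *Klra8*, *Klrb1c*, *Gzma*, *Gzmb* or *Prf1*, and 94.7% had *Cd74*, the invariant chain of MHC class II presentation. *Klrk1* was found in 9.47% of the *Klrd1*-positive cells and 9.71% of the others. *Nkg7* had 2 UMIs in the whole cluster. In an unnamed cluster of 95 cells led by *Ccr7* each of *Klrd1* and *Klrk1* had 13 UMIs.

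**Figure D5:**
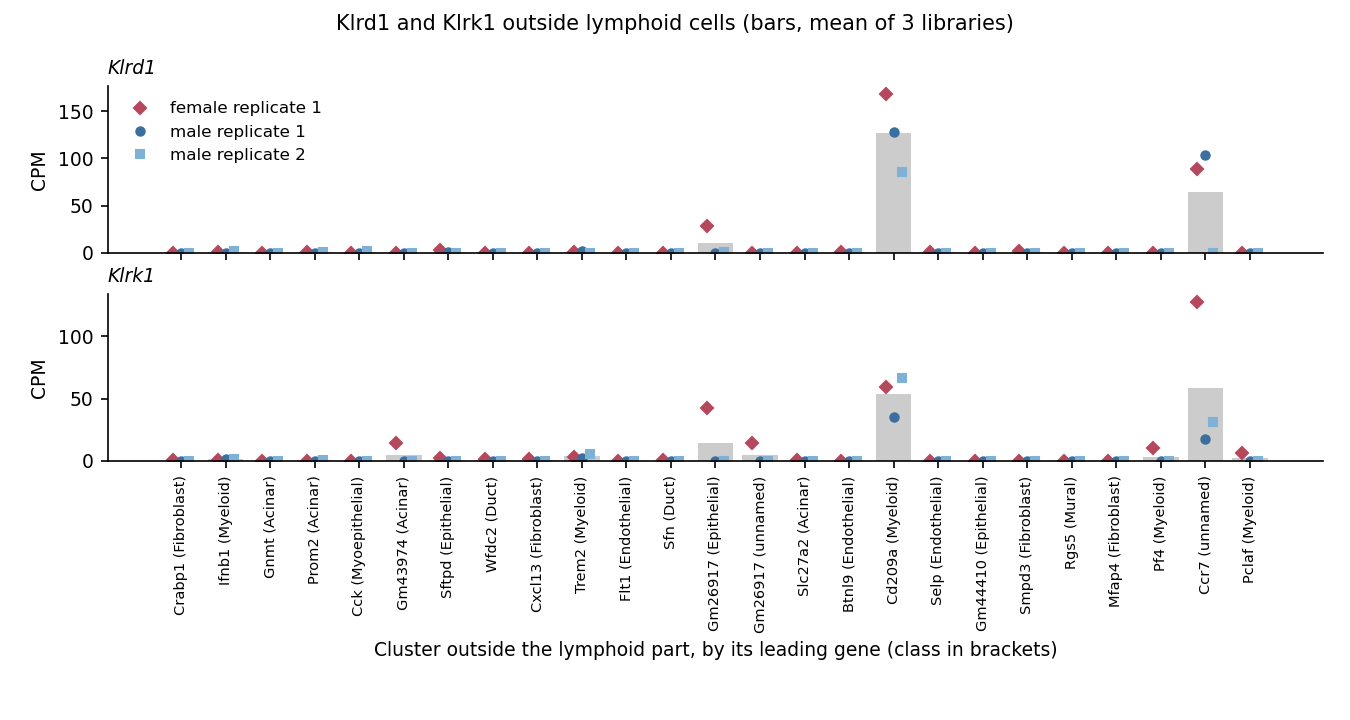
CPM of *Klrd1* and *Klrk1* in each cluster outside the lymphoid part, named by its leading gene, with bars for the mean and a symbol for each library. The cluster led by *Cd209a* has both genes in all 3 libraries, and the small cluster led by *Ccr7* has *Klrk1* in all 3 and *Klrd1* in 2.

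Genes with a profile most like the summed receptors were sought over 49 sums of a library and a cell class from 3 libraries, among 12007 genes, on log2(CPM + 10). They were *Xcl1* (Pearson r = 0.919), *Klrc2* (0.894), *Ctsw* (0.889), *Il2rb* (0.887) and *Ms4a4b* (0.883), where the median gene had -0.08. For the summed effectors they were *Ms4a4b* (0.974), *Xcl1* (0.963), *Ifng* (0.934), *Ctsw* (0.921) and *Sh2d1a* (0.907), with a median gene of -0.11. The sums share libraries and depth, and *Xcl1*, *Il2rb* and *Ms4a4b* were among the genes used to name classes.

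Other genes of recognition and killing were taken from lists beside the 10. Their calls leaned on the female library too. Of 11 calls between NK-like and CD8 T-like cells 3 were kept without it (*Tyrobp*, *Fcer1g* and *Xcl1*, all used to name classes), 6 were lost and 2 could not be tested, and of 33 against ILC-like cells 14 were kept, 10 lost and 9 not tested. Between CD8 T-like and ILC-like cells 9 of 27 were kept, 14 lost and 4 not tested. Of 16 other lectin-like receptors 7 could be tested, and 3 were higher in NK-like than in CD8 T-like cells. These were *Klri2*, a partner of *Klre1* (at least 11.7-fold), *Klra9* (log2 fold change 3.74 ± 0.77, adjusted p = 8.48e-05 by edgeR) and *Klra7* (2.66 ± 0.48, 3.73e-06). Without the female library *Klra7* was lost (adjusted p = 0.420 by edgeR) and the other two were not tested. Against ILC-like cells all 7 were higher in NK-like cells and 4 in CD8 T-like cells. *Klra1*, which had 0 UMIs in ILC-like cells, was at least 11.6-fold higher in CD8 T-like cells, while *Klra4* and *Klra8* had 0 UMIs in those cells. *Klra1* was not tested without the female library.

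Of 11 other granule genes 8 were tested. *Serpinb6b*, an inhibitor of granule proteases, was the only one called between NK-like and CD8 T-like cells (2.05 ± 0.56, adjusted p = 0.00962 by edgeR), and the list's median was 0.61. It was lost without the female library, without male replicate 2 and without the block (adjusted p = 0.3135, 0.231 and 0.149 by edgeR) and with DESeq2 (0.185). Against ILC-like cells 5 were higher in NK-like cells, led by *Ctsw*, a cathepsin of cytotoxic cells (5.00 ± 0.48), and 1 was lower, *Srgn*, the proteoglycan core of granules (-1.43 ± 0.19). In CD8 T-like cells 2 were higher, *Ctsw* and *Cst7*, and *Srgn* was again lower (-1.35 ± 0.20). Without the female library *Cst7* lost both calls (adjusted p = 0.189 in NK-like and 0.514 in CD8 T-like cells by edgeR), and *Ctsw* that in CD8 T-like cells (0.0888). Of 5 genes of the release machinery 2 could be tested and none was called.

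The 8 secreted or surface death and inflammatory ligands were all tested. *Ccl3*, a chemokine, was higher in NK-like than in CD8 T-like cells (2.04 ± 0.37, adjusted p = 4.86e-06 by edgeR), as was *Xcl1*, which had served to name NK-like cells. *Ccl3* was lost without the female library and without the block (adjusted p = 0.178 and 0.251 by edgeR) and with DESeq2 (0.2145). Against ILC-like cells 6 were higher in NK-like cells and 5 in CD8 T-like cells. *Ifng*, the cytokine interferon-γ, stood at 109 ± 17.3 CPM in NK-like and 159 ± 79.0 CPM in CD8 T-like cells, with 1 UMI in ILC-like cells. *Ccl5* reached 2121 ± 1090 and 2932 ± 1155 CPM against 18.3 ± 20.5 CPM.

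Among 7 of 11 adaptors tested, *Tyrobp* and *Fcer1g* were higher in NK-like than in CD8 T-like cells, but both had served as NK markers. Against ILC-like cells *Sh2d1a*, an adaptor of receptors of the SLAM family, was at least 21.9-fold higher in NK-like cells, and *Lck*, a kinase of T cell and NK receptors, was higher by 3.03 ± 0.55 (adjusted p = 6.73e-07 by edgeR). Both were lost without the female library (adjusted p = 0.115 and 0.192 by edgeR). Of 10 transcription factors 8 were tested, and of the 4 with the largest changes between NK-like and ILC-like cells only *Tbx21*, a regulator of cytotoxic cells, had not served to name a class. It was not tested without the female library, and stood at 43.9 ± 19.1 CPM in NK-like, 37.7 ± 17.1 CPM in CD8 T-like and 0.601 ± 1.04 CPM in ILC-like cells. Of 4 of 11 other activating and inhibitory receptors tested, none was called between NK-like and CD8 T-like cells, and *Il18r1*, the interleukin-18 receptor, was higher in NK-like than in ILC-like cells (3.69 ± 0.69, adjusted p = 1.22e-06 by edgeR), but not without the female library (0.3045). *Pdcd1*, an inhibitory receptor, was lower, with 0 UMIs in NK-like and 7 in ILC-like cells (adjusted p = 0.0375 by edgeR). That call was lost without either male library, without the block and with DESeq2, and was not tested without the female library.

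Ligands of the receptors were measured too. The classical MHC genes *H2-K1* and *H2-D1*, bound by many receptors of the *Klra* family, were higher in NK-like than in CD8 T-like cells (0.81 ± 0.18 and 0.70 ± 0.20, adjusted p = 0.000364 and 0.0176 by edgeR). Neither was called without the block (adjusted p = 0.552 and 0.559 by edgeR), without the female library (0.0731 and 0.280) or without male replicate 1 (0.0599 and 0.387), nor was *H2-D1* without male replicate 2 (0.0709). *B2m*, the light chain of MHC class I, was at 1234 ± 838, 1225 ± 490 and 963 ± 604 CPM in NK-like, CD8 T-like and ILC-like cells. *H2-T23*, read by the *Klrd1* product with its partners, was at 112 ± 32.0, 124 ± 30.7 and 80.0 ± 37.6 CPM in NK-like, CD8 T-like and ILC-like cells. *Clec2d*, a ligand of receptors of the *Klrb1* family, was higher in NK-like (1.49 ± 0.42, adjusted p = 0.00296 by edgeR) and in CD8 T-like cells (1.41 ± 0.48, 0.0259) than in ILC-like cells, and stood in endothelial-like cells at 254 ± 61.9 CPM. Neither call held without the female library (adjusted p = 0.458 and 0.946 by edgeR) or without the block (0.0952 and 0.285), and with DESeq2 the second was lost (0.192). *Clec2i* had 17, 3 and 2 UMIs in NK-like, CD8 T-like and ILC-like cells. Of the ligands of the *Klrk1* product, *Raet1d* and *H60b* had 0 UMIs in all kept cells and *H60c* 1, while *Raet1e* had 76 and *Ulbp1* 50.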

How the data were processed

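The deposited matrices hold the UMI count of every gene in every barcode of 10x Genomics 3′ libraries, made per the submitters' processing notes with Cell Ranger 6.1.2 on mm10, before any correction for free RNA; the header of the full matrices names another release. Called barcodes had to exceed 500 UMIs and 200 detected genes with less than 15% of UMIs from mitochondrial genes, and 646, 287 and 315 cells were removed by doublet score (scanpy 1.11.5, at 0.8% per 1000 barcodes). Counts were normalized with SCTransform and integrated in Seurat 5.3.0 (R 4.3.3; 3000 features, 30 dimensions, resolution 1), and lymphoid cells were clustered again (2000 features, 20 dimensions, resolution 1). The 10 genes, their families and other listed genes (339 in all) stayed out of the features. Clusters were named from marker lists; a limit of 3 UMIs per cell in the naming score and the rule on leading genes were set after clusters had been seen. Free RNA was estimated from uncalled barcodes of 501 to 2000 UMIs, scaled on 118 tear-product genes.

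UMIs summed per library and class (15 sums, 2820 genes) were tested with edgeR 4.0.16 (filterByExpr with a smallest count of 3, TMM, glmQLFit, glmQLFTest). The median prior degrees of freedom were infinite, against 8 residual, so the spread of the typical gene was taken from all genes tested. P-values therefore say little of a gene's own spread between libraries. The smallest count of 3 was chosen because the default of 10 left 718 genes, after the number of genes passing was seen. Classes of a library came from the same suspension, which is why the library was a block; deviations of classes within a library correlated at 0.066 to 0.598. The scripts were tested on simulated data. Bounds and ratios pool UMIs over libraries, and bounds use 3 counts over a class. Intervals of ratios and of shares cover counting error only, while those of log2 fold changes were taken from the SE of the fit. Alternatives were DESeq2 1.42.0, other scalings, filters, clusters, gates and single libraries left out; their use on the other listed genes was chosen after seeing the data. Genes were named as all 10 members, from the up to 4 called genes of each other list with the largest fold change, 6 ligands by level and 5 genes by likeness; *Srgn* against NK-like cells, the *Raet1* and *H60* genes and *Ulbp1* were named after their values were seen. The 10 genes, the lists and the motifs were chosen with earlier results of these data known.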

Additional observations from a re-analysis of the deposited data

Results flagged for a closer look

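Signal of the 10 genes was found in data that the comparisons did not use. Barcodes that were not called as cells held 726 of 5739 UMIs of these genes in the female library (12.7%), 179 of 666 in male replicate 1 (26.9%) and 187 of 833 in male replicate 2 (22.4%). In the myeloid-like cluster led by *Cd209a*, which entered no test, *Klrd1* had 135 UMIs and *Klrk1* 55 UMIs, above the 3 counts that a count of 0 allows and above the 0.212 and 0.107 expected from free RNA. Both were present in each of the 3 libraries.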

How the results depend on the processing

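Among refits of the 10 genes, 381 kept direction and side of the threshold, 27 lost it, 5 gained it and 2 reversed; the reversals were *Klrb1c* (-4.48) and *Gzma* (-0.22) in CD8 T-like against ILC-like cells under marker gates, whose ILC gate also held 16 NK-like and 6 CD8 T-like cells. Genes called among the 10, NK-like against CD8 T-like cells, numbered 2 with DESeq2 (3 had no adjusted p), 5 without the replicate block and 5 with gates, and 6 to 9 with 1 library left out (8 were testable without the female library). NK-like against ILC-like cells gave 7 to 10. CD8 T-like against ILC-like cells gave 3 with DESeq2, 2 with gates and 3 to 8 with 1 library left out, 3 without the female library. All genes called went from 96 to 58 with DESeq2, 43 without the block, 41 with gates, 157 at lower resolution and 34 (without the female library) to 77 with 1 library left out (NK-like against CD8 T-like); from 504 to 289, 259 with the default filter (chosen after seeing the data), 259 without the block and 142 (without the female library) to 525 (NK-like against ILC-like); and from 402 to 241, 232, 234, 152 with gates and 170 (without the female library) to 366 (CD8 T-like against ILC-like). Scaling by total UMIs gave 341 higher and 198 lower in place of 217 and 287 (NK-like against ILC-like, median shift 0.33) and 226 and 159 in place of 164 and 238 (CD8 T-like against ILC-like, 0.26). Receptor CPM in NK-like cells (1933) became 3766 on totals without tear-product and mitochondrial UMIs and 4375.5 with free RNA subtracted; CD8 T-like 478 with subtraction; ILC-like 11.02, 13.75 and 96.6 with gates. Effector CPM became 3297 and 3880 in NK-like, 1445, 1626.5, 473.5 at lower resolution and 1132 with gates in CD8 T-like, and 12.0, 14.8 and 78.2 in ILC-like cells. The median share of cells became 32.5% unthinned and 25.4% at 1000 UMIs in NK-like and 2.78% unthinned in CD8 T-like cells. The causes were not tested. Depth limits the male libraries, which hold few cells and UMIs of these genes.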

Other observations

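In the 162 unnamed lymphoid cells, whose leading genes included immunoglobulin genes, *Nkg7* stood at 119, 0 and 41.6 CPM and *Gzma* at 79.5, 103 and 0 CPM in the female library, male replicate 1 and male replicate 2. Free RNA was estimated to hold 78.0 to 91.6% of the UMIs of these cells across libraries. In an epithelial-like cluster of 580 cells led by *Gm26917*, *Klrk1* had 12 UMIs and *Klrd1* 9, of which 12 and 8 were in the female library. The remaining members had UMIs there too. *Nkg7* had 9, *Klra8* 6, *Klra4* 5, *Klre1*, *Klrb1c* and *Gzma* 4 each, *Prf1* 2 and *Gzmb* 1. Every one of these counts lay above the UMIs expected from free RNA.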
